A study of Mus musculus with 81 samples.

Results

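Axon guidance ligands and receptors are the proteins with which growing axons and moving cells read their surroundings. The set described here held 67 of the 22869 gene symbols in the table. It took every semaphorin (Sema), plexin (Plxn), Slit, Robo, ephrin (Efna, Efnb), Eph receptor (Epha, Ephb) and Unc5 gene by its family name, together with Nrp1, Nrp2, Ntn1, Ntn4 and Dcc. Unc50, Unc5cl and 6 Slitrk genes, which share only letters with these names, were left out. The rule goes by gene name and uses no measured value, and each gene is represented by its transcript of highest mean. By role the set divides into 33 ligands and 34 receptors: 20 semaphorins with 9 plexins and 2 neuropilins, 3 Slits with 4 Robos, 2 netrins with 5 netrin receptors (Dcc and 4 Unc5 genes), 5 ephrin-A genes with 9 Eph-A genes, and 3 ephrin-B genes with 5 Eph-B genes.

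The cells came from embryos of the CD1 mouse strain, wild type, in which the pancreas was taken at embryonic day 13.5 and dissociated with trypsin. A microfluidic device captured single cells, and full-length cDNA was amplified in each by template switching before Nextera XT libraries were made. All 81 cells carry the same labels, with no animal named, and so count as 1 sample: no test between classes of cells was possible, and all counts, ranges and differences describe these cells. Levels are in RPKM, which corrects read numbers for the length of the transcript and the size of the library, and a gene is called detected in a cell at 1 RPKM or more.

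Guidance cues act through cell surface receptors that reorganise the actin cytoskeleton. Slits bind Robo receptors, netrins bind Dcc and the Unc5 receptors, semaphorins bind plexins (the secreted class with a neuropilin as co-receptor), and ephrins bind Eph receptors on a touching cell. The same proteins pattern blood vessels, and in the mouse pancreas Eph, Slit and semaphorin signals have been linked to branching of the epithelium, to the identity of progenitors and to the movement of endocrine cells.

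Depth was estimated from the RPKM worth of 1 read. It came to between 1638970 and 5293930 reads in 77 cells, with a median of 3475670 over all 81. C3, C61, C94 and C43 were far shallower, at 19494, 71441, 194689 and 415737 reads. In a transcript of 1 kb, 1 read was there worth between 2.41 RPKM (C43) and 51.3 RPKM (C3), so 1 read can make a gene count as detected. Clusters made without the 67 genes were named from marker lists. Mesenchymal-like cells were 67 of the 81 (82.7%, exact Clopper-Pearson 95% interval 72.7% to 90.2%, for counting error only), epithelial-like cells 4 (C43, C47, C82 and C95), endocrine-like cells 2 (C24 and C56), endothelial-like cells 2 (C22 and C72) and leukocyte-like cells 4 (C2, C31, C36 and C54). C37, with 3 of 7 mesothelial markers, and C3, which stayed unnamed, enter no comparison. Their defining markers were high: Epcam was at 47.8 RPKM or more in all 4 epithelial-like cells, Pecam1 at 45.9 RPKM or more in both endothelial-like cells and Ptprc at 50.3 RPKM or more in all 4 leukocyte-like cells, while Pecam1 and Ptprc reached 1 RPKM in none of the 67 mesenchymal-like cells. The mesenchymal name is the least firm. It rests on 6 to 11 of 19 markers per cluster, none of them among a cluster's 10 leading genes, and its collagen Col1a2 was also at 8.26 RPKM or more in every epithelial-like, endocrine-like, endothelial-like and leukocyte-like cell. Within it, C45 had 8 of 12 neural and glial markers and 2 of 19 mesenchyme markers at 10 RPKM, and C91 had 5 epithelial, 4 endocrine and 6 mesenchyme markers. All 81 libraries have distinct index pairs, although each shares an index with others, and no 2 cells were alike enough to be duplicates (highest Pearson r over genes 0.598, for C22 and C72).

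Most cells carried some of these genes and few genes were in most cells. A cell had a median of 14 of the 67 detected, with a range of 5 to 22. Of the 67 genes, 53 were detected in at least 1 cell and 8 in at least 50% of cells. These 8 are 11.9% of the set, against 13.1% of all genes in the table. In the other direction, 14 genes (20.9%) were detected in no cell, against 36.9% of all genes. Of the 8 widespread genes, 4 were ligands (Efna5 in 72 cells, Sema6a in 70, Sema5a in 63 and Slit2 in 60). The other 4 were receptors (Epha4 in 65, Robo1 in 62, Nrp1 in 46 and Plxnb2 in 45). The Slit and ephrin-A systems thus each had a widespread ligand with a widespread receptor for it. Among semaphorins the match was looser, since Nrp1 and Plxnb2 are receptors of other classes than those of Sema6a and Sema5a. Plxna2, a known receptor of Sema6a, was detected in 38 cells, below 50%. The number of genes detected per cell went with depth over the 77 deeper cells (Spearman rho 0.456 with reads and 0.539 with all genes detected), and the part of depth in these counts was not tested.

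**Figure D1:**
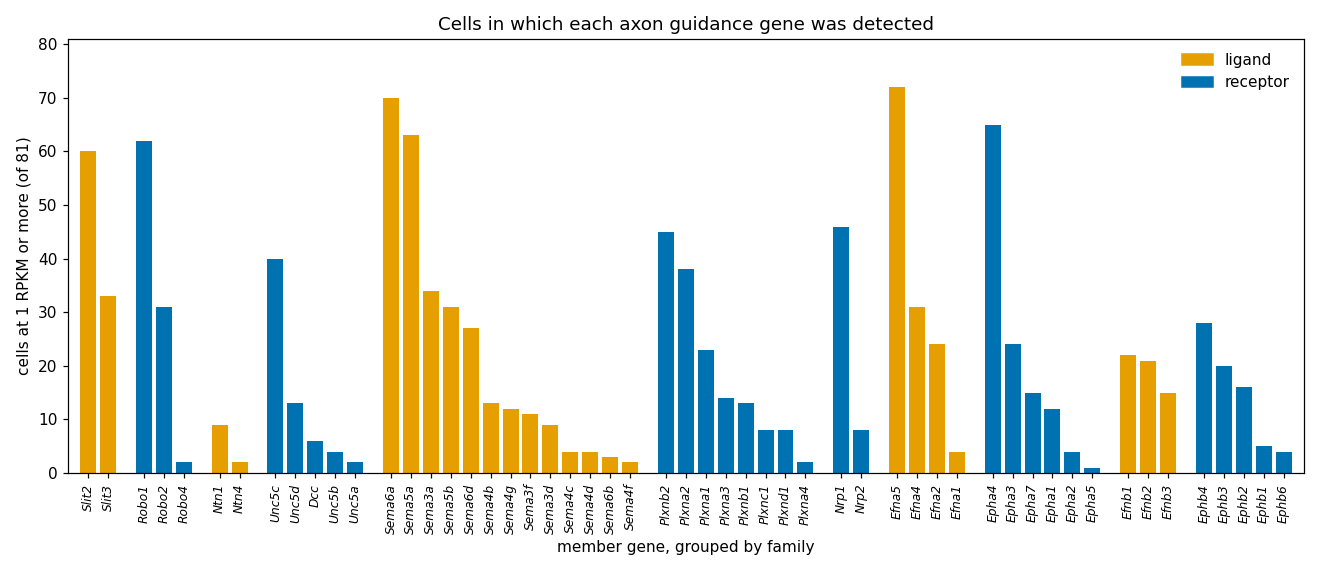
Number of cells, of 81, in which each of the 53 detected genes reached 1 RPKM (bars), grouped by family; orange bars are ligands and blue bars receptors. Within their families Efna5 (72 cells), Epha4 (65), Robo1 (62), Slit2 (60) and Nrp1 (46) stand well above their relatives, and among semaphorins Sema6a (70) and Sema5a (63) do so together.

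The Slit and Robo pair shows how the widespread genes were distributed. Slit2, a secreted ligand best known for repelling axons, lies on chromosome 5 (48374394 to 48697017 in mm9, plus strand) and was detected in 60 cells (74.1%, 63.1% to 83.2%), with a median over all cells of 6.81 RPKM and a highest value of 67.6 RPKM in C32. Its receptor gene Robo1, on chromosome 16 (72663394 to 73046345, plus strand), was detected in 62 cells (76.5%, 65.8% to 85.2%), with a median of 6.45 RPKM and a highest value of 61.2 RPKM in C39. The 2 medians per length were thus close, while the means were 14.8 RPKM for Slit2 and 11.004 RPKM for Robo1, and levels did not go together over cells (Spearman rho -0.04). Robo2, a second Slit receptor, was detected in 31 cells, and its highest value, 104.6 RPKM in C79, stood well above the next, 40.3 RPKM in C80. Slit3 was detected in 33 cells at up to 37.5 RPKM. Slit1 and Robo3 were listed at 0 in all 81 cells, a share of 0 that allows up to 3.70% of cells (3 of 81). Robo4, the Robo of blood vessels, was detected in 2 cells only, C22 and C72.

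Slit2 and Robo1 were detected together in 45 cells, but not more often than their shares give. Of the 60 cells with Slit2, 75% also had Robo1, and of the 21 without it, 80.95%. In the 67 mesenchymal-like cells, both were detected in 43, Slit2 alone in 12, Robo1 alone in 10 and neither in 2. Ligand and receptor were therefore most often in the same cell, at the rate of the receptor in cells without the ligand.

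The stretches just upstream of the start sites of 4 genes are shown because they contrast a ligand and receptor found in most cells (Slit2, Robo1) with 2 receptors found in few cells, both endothelial-like cells among them (Robo4, Plxnd1). They are the 250 bases before the first listed start in RefSeq (GRCm38.p6): Slit2 chr5:47982905-47983154, plus strand; Robo1 chr16:72662899-72663148, plus; Robo4 chr9:37401722-37401971, plus; Plxnd1 chr6:115995006-115995255, minus. Capitals mark GGAAG, the core of ETS factor motifs, on either strand (CTTCC on the other).
Slit2: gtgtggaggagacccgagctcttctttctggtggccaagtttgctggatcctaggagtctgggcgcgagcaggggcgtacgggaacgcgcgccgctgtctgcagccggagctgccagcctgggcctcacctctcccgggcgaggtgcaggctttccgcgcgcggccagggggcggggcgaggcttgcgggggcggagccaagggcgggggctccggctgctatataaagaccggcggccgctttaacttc
Robo1: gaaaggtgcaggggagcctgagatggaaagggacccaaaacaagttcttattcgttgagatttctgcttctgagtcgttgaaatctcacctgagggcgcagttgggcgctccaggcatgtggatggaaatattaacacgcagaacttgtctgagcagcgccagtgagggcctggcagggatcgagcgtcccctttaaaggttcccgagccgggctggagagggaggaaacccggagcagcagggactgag
Robo4: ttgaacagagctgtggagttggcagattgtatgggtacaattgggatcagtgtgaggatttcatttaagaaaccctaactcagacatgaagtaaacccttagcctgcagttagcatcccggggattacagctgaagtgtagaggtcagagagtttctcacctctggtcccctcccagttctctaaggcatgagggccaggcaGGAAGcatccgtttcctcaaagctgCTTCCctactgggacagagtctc
Plxnd1: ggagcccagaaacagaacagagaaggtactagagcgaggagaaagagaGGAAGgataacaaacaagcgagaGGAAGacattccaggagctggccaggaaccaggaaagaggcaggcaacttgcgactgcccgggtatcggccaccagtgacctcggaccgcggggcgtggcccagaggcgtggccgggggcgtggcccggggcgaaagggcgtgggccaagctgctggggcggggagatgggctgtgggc
Robo4 and Plxnd1 each hold 2 matches to GGAAG, and Slit2 and Robo1 none. The letters are common, with at least 1 match in 64.1% of 32851 promoters of the same length, so a match describes the sequence only. Nor did matches divide the set in this way. The widespread Nrp1 had 3 and Sema5a 2, while Efnb2 and Nrp2, both higher in endothelial-like cells, had none. The 4 windows also differ in composition. Slit2 has 25 CpG dinucleotides, 69.6% G or C, 3 GC boxes (GGGCGG, in 32.7% of promoters) and 1 TATAAA (in 12.4%), while Robo4 has 2 CpG, 49.6% G or C and neither motif; the median promoter has 6 CpG and 52.4%. Robo1 (11 CpG) and Plxnd1 (16 CpG, 1 GC box) lie between.

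Semaphorins were the largest family, and 2 of its 20 genes held most of the signal. Sema6a, a transmembrane semaphorin, was detected in 70 cells with a median of 25.7 RPKM, and in 57 cells it was at 10 RPKM or more. Sema5a, which carries thrombospondin repeats beside its semaphorin domain, was detected in 63 cells with a median of 15.4 RPKM and a highest value of 160 RPKM in C25. Then came Sema3a, a secreted repellent, in 34 cells, Sema5b in 31 and Sema6d in 27. Sema3a had a median of 0.126 RPKM but a highest value of 197 RPKM in C59, with the next cell, C29, at 64.6 RPKM. Another 8 semaphorins were detected in 2 to 13 cells, and 7 (Sema3b, Sema3c, Sema3e, Sema3g, Sema4a, Sema6c and Sema7a) in none. Of the secreted class 3 semaphorins, only Sema3a, Sema3d and Sema3f were therefore detected.

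Among the semaphorin receptors, Nrp1 and Plxnb2 were widespread without being evenly high. Nrp1, the co-receptor shared by class 3 semaphorins and VEGF-A, was detected in 46 cells (56.8%, 45.3% to 67.8%) with a median of 1.68 RPKM and a highest value of 92.1 RPKM in C95. Plxnb2, a plexin for class 4 semaphorins, was detected in 45 cells with a median of 1.84 RPKM, and it passed 100 RPKM in 3 cells, among them C13 (189 RPKM) and C37 (170 RPKM). Nrp2 was detected in 8 cells and at no more than 13.4 RPKM. Plxna2 followed in 38 cells and Plxna1 in 23, and 10.7% of the exon bases of Plxna1 are overlapped by a gene on the other strand. Another 4 plexins (Plxna3, Plxnb1, Plxnc1 and Plxnd1) were in 8 to 14 cells, Plxna4 in 2 and Plxnb3 in none. Sema3a and Nrp1 were detected together in 16 cells: 47.1% of the 34 cells with Sema3a had Nrp1, against 63.8% of the 47 without. Sema6a and Plxna2, a known receptor of it, were together in 32 cells, and Sema6d and Plxna1 in 11.

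Ephrin-A and Eph-A genes gave the highest levels of the set. Efna5, an ephrin anchored to the membrane by a lipid, lies on chromosome 17 (62952306 to 63230666, minus strand) and was detected in 72 cells (88.9%, 79.95% to 94.8%) with a median of 49.9 RPKM; 21 cells passed 100 RPKM, and the highest was 238 RPKM in C79. Epha4, a receptor that binds both ephrin classes, lies on chromosome 1 (77363760 to 77511663, minus strand) and was detected in 65 cells with a median of 15.6 RPKM. Its value in C81, 314 RPKM, was the highest of any gene of the set, and the next was 102 RPKM in C7. Efna5 and Epha4 were detected together in 58 cells: 80.6% of cells with Efna5 had Epha4, against 77.8% of the 9 without. Efna4 was high in a minority of cells. It was detected in 31 cells, in 23 of them at 10 RPKM or more and in 6 at 100 RPKM or more, with a median of 0 and a highest value of 202 RPKM in C21; 10.5% of its exon bases are overlapped by a gene on the other strand. Efna2 and Epha3 were detected in 24 cells each, and each had a lone high value, Efna2 193 RPKM in the shallow C43 and Epha3 251 RPKM in C35. Epha7, Epha1, Epha2 and Epha5 were in 15, 12, 4 and 1 cells, Efna1 in 4, and Efna3, Epha6, Epha8 and Epha10 were listed at 0 in every cell.

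All 8 ephrin-B and Eph-B genes were detected, each in less than 50% of cells. Ephb4, the venous Eph receptor, was in 28 cells and Efnb2, its arterial ligand, in 21. Efnb1 was in 22 cells, Ephb3 in 20, Ephb2 in 16, Efnb3 in 15, Ephb1 in 5 and Ephb6 in 4. High values were set by few cells: Efnb2 reached 147 RPKM in C11 and 105 RPKM in C95, Efnb3 114 RPKM in C13, Ephb2 102 RPKM in C15 and Ephb4 138 RPKM in the shallow C43. Efnb2 and Ephb4 were together in 11 cells. Of the 21 cells with Efnb2, 52.4% also had Ephb4, against 28.3% of the 60 without. Over all 81 cells this was the widest gap toward shared detection among the 17 ligand and receptor pairs compared. The Spearman rho of the 2 levels was only 0.007 over all 81 cells and 0.04 in mesenchymal-like cells. Within the 67 mesenchymal-like cells the gap of this pair was 50% against 27.5%, and that of Sema6d and Plxna1 was wider, 52.6% against 20.8%. These are descriptions of 8 to 11 cells.

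Netrin genes were sparse and their receptors uneven. Ntn1 was detected in 9 cells, at up to 24.6 RPKM, and Ntn4 in 2. Of the receptors, Unc5c was in 40 cells with a median of 0.999 RPKM and a highest value of 54.7 RPKM in C6, while Unc5d was in 13, Dcc in 6, Unc5b in 4 and Unc5a in 2. No cell had both Ntn1 and Dcc, and 6 had Ntn1 with Unc5c.

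**Figure D2:**
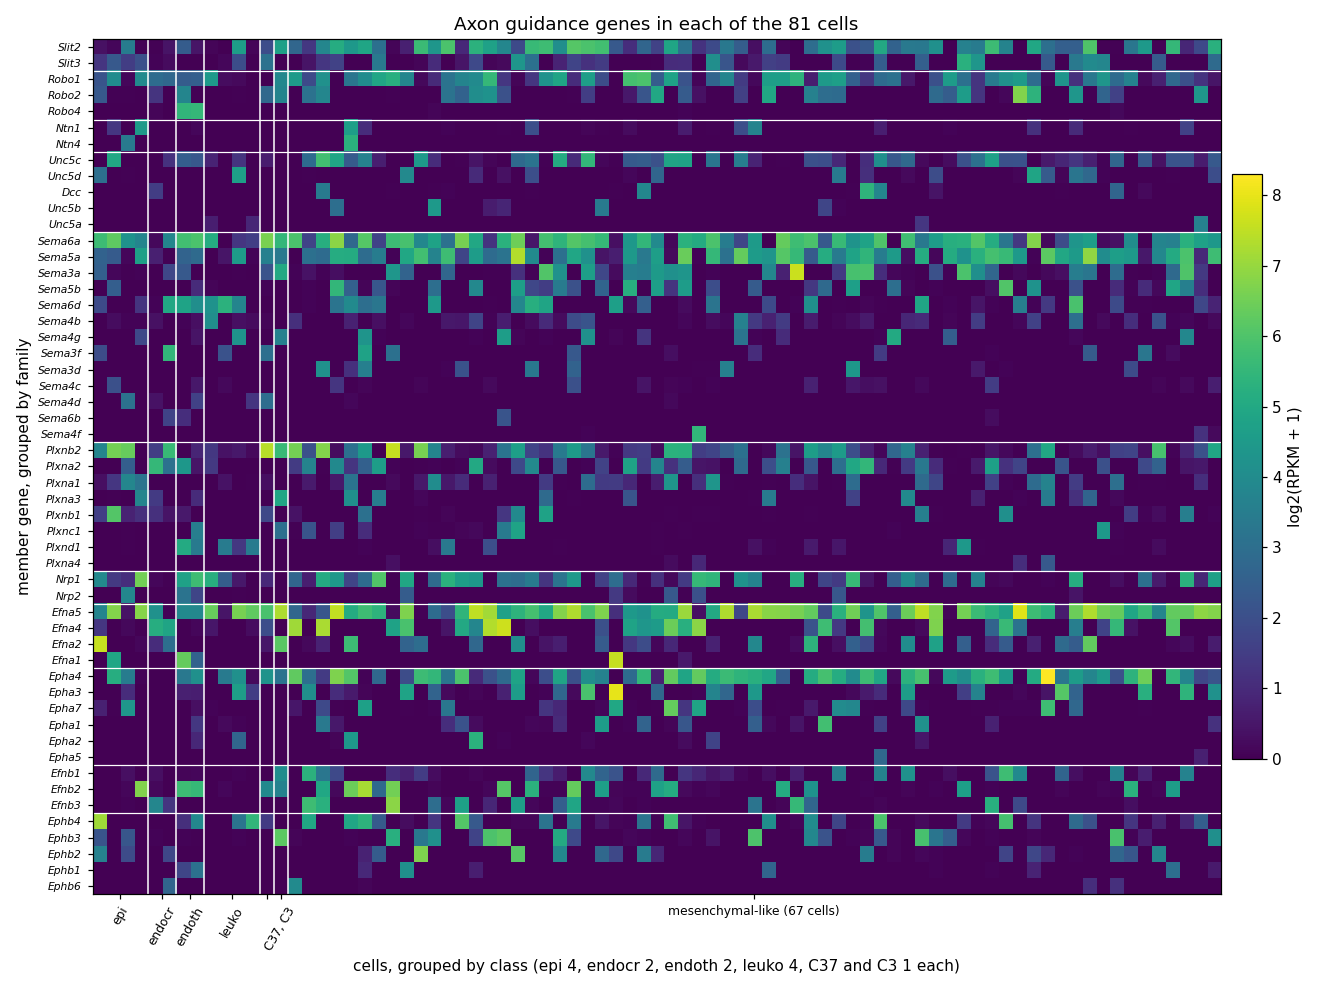
Levels of the 53 detected genes (grouped by family, top to bottom) in each of the 81 cells (columns, grouped by class; epi, endocr, endoth and leuko stand for the epithelial-like, endocrine-like, endothelial-like and leukocyte-like cells), coloured by log2(RPKM + 1). Efna5, Sema6a, Epha4, Sema5a, Robo1 and Slit2 form near-continuous bands, Robo4 is bright in the 2 endothelial-like cells alone, and most other genes are scattered bright cells on a dark ground.

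Co-variation within the set was weak. Among the 23 genes detected in at least 20 cells, 253 pairs were formed, and the median Spearman rho over the 81 cells was 0.02. The absolute rho reached 0.3 in 3 pairs: Epha3 and Robo1 (rho -0.37, together in 13 cells), Efna4 and Epha3 (-0.36, in 3 cells) and Sema5b and Unc5c (0.34, in 22 cells). The next 7 pairs (Epha4 and Slit2, Efna4 and Robo2, Efna5 and Slit3, Unc5c with each of Sema5a, Plxna2 and Epha4, and Efna2 and Sema3a) lay between 0.26 and 0.30. All values of a cell share its library and depth, and correlations this low in sparse values are not a finding.

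The next comparisons ask how classes of cells in the same pancreas differ in these genes. Differences are of mean log2(RPKM + 1), which understates them for low genes, always as the smaller class minus the mesenchymal-like cells, and are counted from 1 log2 unit. Of the 67 genes, 51 were above 0 in at least 3 cells. The share of genes past the same step is given over 12237 genes that met this filter and were not used to form the clusters. Genes used for clustering were chosen for high variance, and no gene of the set could be removed in this way. The shares over all genes may be lower for that reason, by an amount that was not computed.

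**Figure D3:**
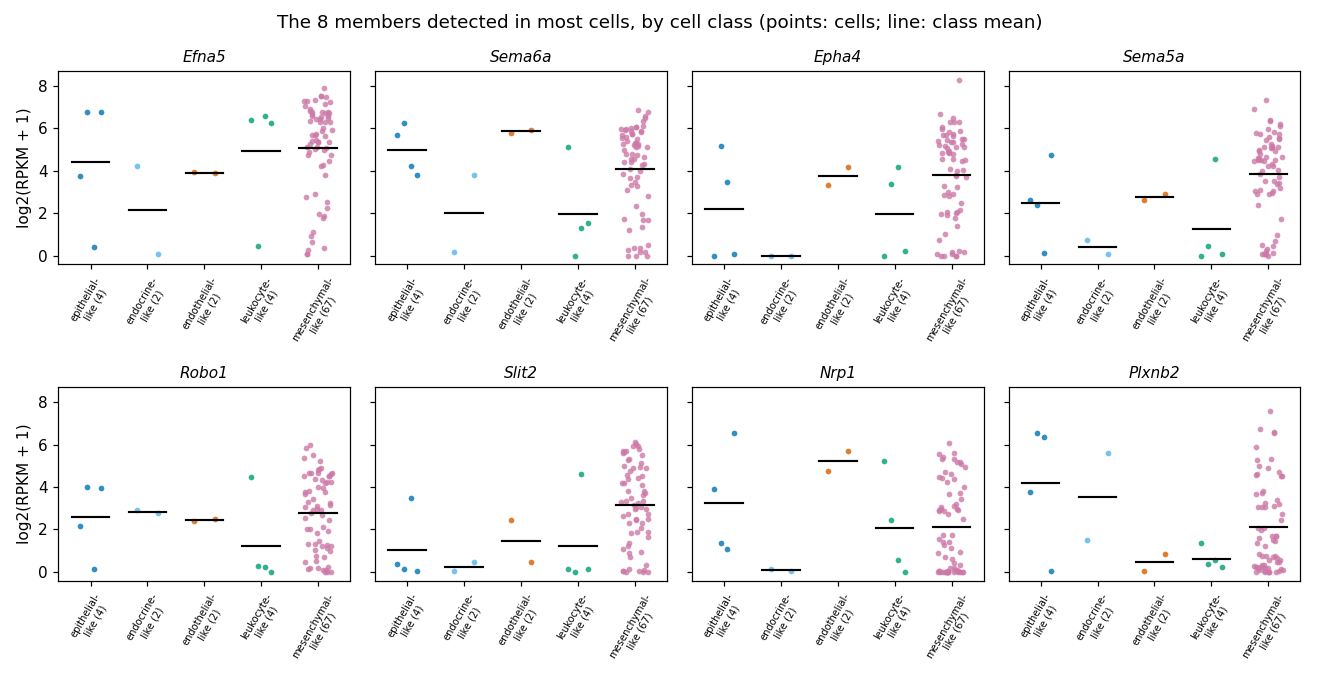
Levels, as log2(RPKM + 1), of the 8 genes detected in most cells, by class (points are cells, horizontal lines class means, numbers of cells in brackets). For every gene the mesenchymal-like cells run from near 0 to high levels, Nrp1 and Sema6a are high in both endothelial-like cells, and Epha4, Sema5a, Slit2 and Nrp1 are near 0 in both endocrine-like cells.

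In endothelial-like cells 8 of the 51 genes (15.7%) were higher by at least 2 log2 units, against 12.1% of all genes tested at that step. In endocrine-like cells 3 (5.88%) were, against 10.6% of all genes, in epithelial-like and leukocyte-like cells 1 each (1.96%), against 5.77% and 3.47%, and in the epithelial-type cells together none, against 3.51%. In C22 and C72, 11 of the 51 genes (21.6%) were higher than in the mesenchymal-like cells, against 29% of all genes tested, and 7 (13.7%) were lower, against 5.94%. The count of higher genes is therefore not above that of genes at large. C22 had 5606 genes detected at 3740510 reads, and C72 had 6311 at 5293930 reads (median of all cells 3475670 reads). Each had 20 genes of the set detected. The part of depth was not tested. Over the 51 genes the median difference was -0.12 log2, and over all genes tested 0.05. Robo4 had 42.6 RPKM in C22 and 45.5 RPKM in C72, against a range of 0 to 0.126 RPKM over the mesenchymal-like cells, in which it was detected in none; the difference was 5.49 log2. No other cell of any class reached 1 RPKM. Robo4 lies on chromosome 9 (37209631 to 37221607, plus strand). Plxnd1, a plexin of developing vessels, had 32.7 RPKM in C22 and 9.47 RPKM in C72, against a median of 0 and a highest value of 20.6 RPKM in mesenchymal-like cells (3 of 67 detected), a difference of 4.04 log2. So C22 lies above all mesenchymal-like cells and C72 within their range.

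The ephrins Efnb2 and Efna1, both neuropilins, Ephb1 and Sema6d made up the rest of the 8. Efnb2 had 50.6 RPKM in C22 and 46.1 RPKM in C72, against a median of 0.049 RPKM in mesenchymal-like cells, in 16 of which it was detected and reached up to 147 RPKM; the difference was 4.34 log2. Efna1, a ligand of Epha2, had 79.9 RPKM in C22 and 5.13 RPKM in C72, against 1 mesenchymal-like cell of 67 with the gene (C35, 189 RPKM), a difference of 4.36 log2. Nrp1 had 26.1 and 51.6 RPKM in the endothelial-like cells, against a median of 1.96 RPKM and a highest value of 65.8 RPKM in mesenchymal-like cells, a difference of 3.11 log2. The groups overlap for all 3 genes. Nrp2, known from veins and lymphatic vessels, was higher by 2.28 log2 (7.87 and 2.33 RPKM, against 5 of 67 cells), Ephb1 by 2.22 log2 (2.30 and 7.63 RPKM, against 3 of 67 cells) and Sema6d by 3.42 log2 (27.1 and 16.4 RPKM, against 19 of 67 cells). For Nrp2, Ephb1 and Sema6d the groups overlap too, with mesenchymal-like cells at up to 4.32, 16.7 and 59.3 RPKM. The remaining 3 higher genes were Sema6a (1.79 log2), Plxnc1 (1.495 log2, in C72 only) and Ephb4 (1.29 log2). Both Efnb2 and Ephb4 were thus detected in both cells.

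The 7 genes lower in endothelial-like cells were Efna4 (-1.93 log2), Slit2 (-1.71), Plxnb2 (-1.67), Efna5 (-1.18), Sema5a (-1.09), Efna2 (-1.05) and Slit3 (-1.05). Plxnb2 was detected in neither cell (0.041 and 0.807 RPKM), against 37 of the 67 mesenchymal-like cells. Slit2 had 4.38 and 0.394 RPKM, against a median of 8.51 RPKM and a range of 0 to 67.6 RPKM. Efna5, Sema5a and Robo1 were detected in both endothelial-like cells. Leaving out either cell left 12 genes higher and 7 or 9 lower.

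**Figure D4:**
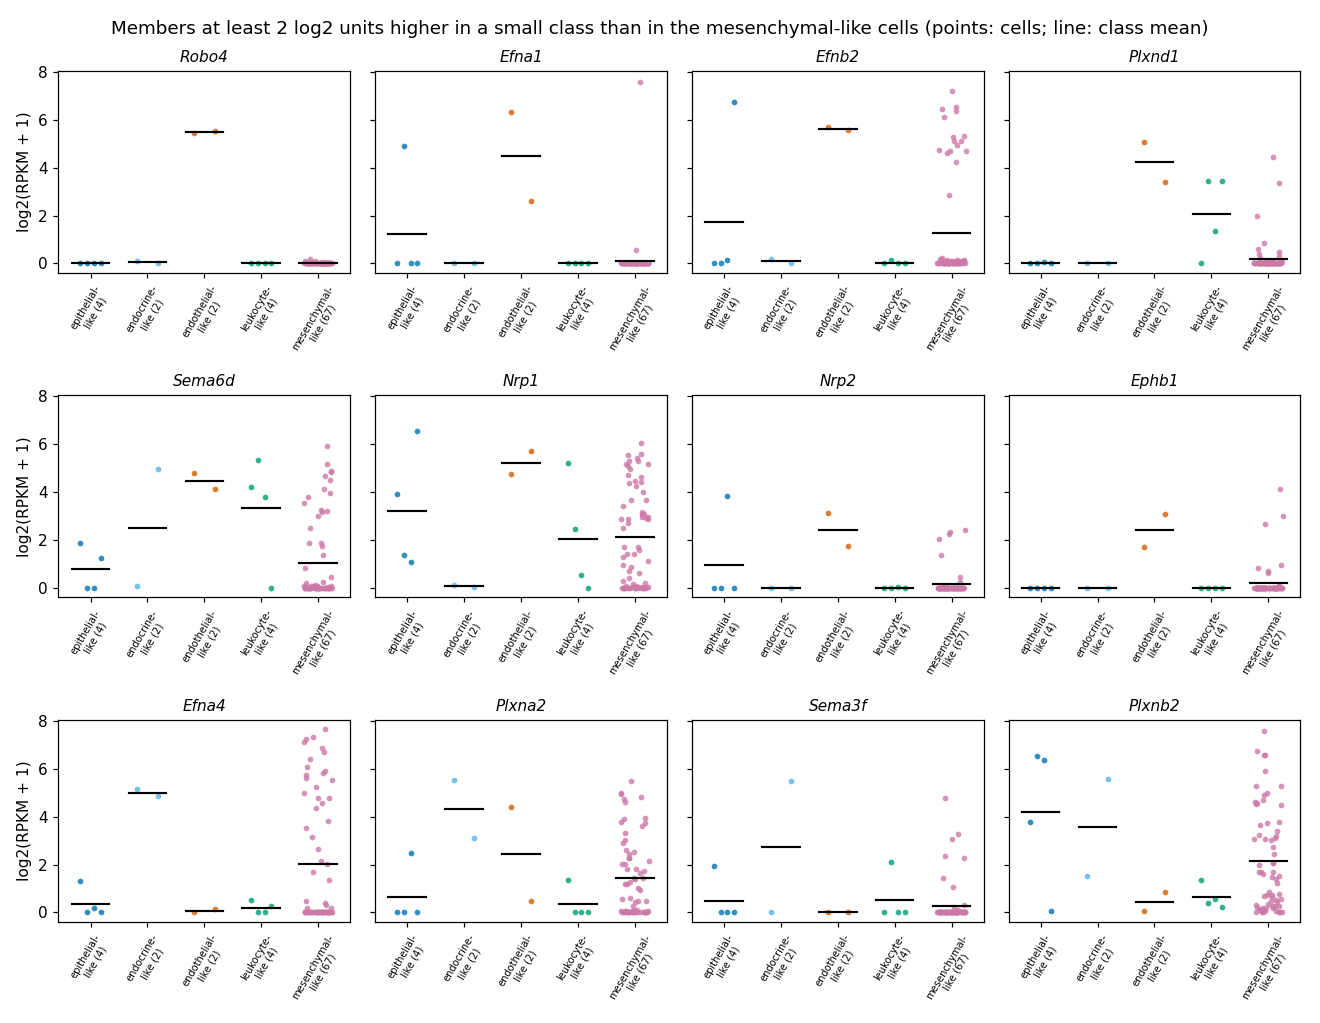
Levels, as log2(RPKM + 1), of the 12 genes that were higher by at least 2 log2 units in 1 of the small classes than in mesenchymal-like cells, by class (points are cells, lines class means, numbers of cells in brackets). Robo4 separates the 2 endothelial-like cells (42.6 and 45.5 RPKM) from all others, whereas for Efnb2, Nrp1, Plxna2, Efna4 and Plxnb2 the mesenchymal-like cells range from 0 to values above those of the small class or close to them.

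Epithelial-type cells, the 4 epithelial-like and 2 endocrine-like cells together, differed in few genes. Higher were 2 of the 51 (3.92%, against 16.6% of all genes tested), and lower were 5 (9.80%, against 4.51%). The median difference over the 51 was -0.07 log2, against 0.09 over all genes tested. Both higher genes were B-class plexins. Plxnb2 was detected in 5 of the 6 cells, with 12.6, 92.7, 82.1 and 0.0339 RPKM in the epithelial-like C43, C47, C82 and C95 and 1.84 and 47.3 RPKM in the endocrine-like C24 and C56, against a median of 1.84 RPKM and a range of 0 to 189 RPKM in mesenchymal-like cells, a difference of 1.84 log2. Within the mesenchymal-like class C91, which carried epithelial and endocrine markers, had 58.5 RPKM. Without C45 and C91, no count of higher or lower genes moved by over 1.5 times. Plxnb1, a receptor of Sema4d, was detected in 4 of the 6 cells, with its highest value of all 81 cells in C47 (67.4 RPKM), against 8 of 67 mesenchymal-like cells and at most 26.6 RPKM there, a difference of 1.45 log2. For both genes the groups overlap.

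The 5 lower genes were Slit2, Epha4, Sema5a, Efna5 and Epha3. Slit2 was detected in 1 epithelial-type cell (C82, 10.3 RPKM) and lay between 0.0273 and 0.362 RPKM in the other 5, against 55 of 67 mesenchymal-like cells with a median of 8.51 RPKM, a difference of -2.40 log2. Epha4 was detected in C47 (35.2 RPKM) and C82 (10.2 RPKM), against 57 of 67 mesenchymal-like cells with a median of 21.95 RPKM, a difference of -2.34 log2. Sema5a was detected in 3 epithelial-like cells, C43, C47 and C95, at 5.06, 4.21 and 25.4 RPKM, against 55 of 67 mesenchymal-like cells with a median of 21.3 RPKM, a difference of -2.08 log2. Each of these 3 genes is thus low in most epithelial-type cells but also at 0 in some mesenchymal-like cells. Robo1, in contrast with its ligand Slit2, was detected in 5 of the 6 epithelial-type cells, at 3.46 to 15.2 RPKM, all but C82. Libraries that share an index were checked, since many values of the set are low. For the 609 values between 0 and 1 RPKM, another cell held the same gene at 100 times the value or more in 15.1% of pairings with a cell that shares an index and in 14.3% of pairings with a cell that shares none.

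In the 2 endocrine-like cells, Epha4, Sema5a, Slit2 and Nrp1 were low and Efna4 and Plxna2 high. Epha4 was listed at 0 in C24 and C56, a difference of -3.80 log2 from the mesenchymal-like cells, and Sema5a had 0.669 and 0.0444 RPKM (-3.45 log2). Slit2 was also detected in neither cell, against 55 of 67 mesenchymal-like cells (-2.91 log2). Nrp1 had 0.097 and 0.0411 RPKM, against 38 of 67 mesenchymal-like cells (-2.03 log2), while all 4 epithelial-like cells had it at 1.10 to 92.1 RPKM. Efna5 (-2.95 log2) and Sema6a (-2.08 log2) were each detected in only 1 of the 2 cells, Efna5 in C24 and Sema6a in C56. Efna4 was high in both, with 34.9 RPKM in C24 and 27.7 RPKM in C56, against 27 of 67 mesenchymal-like cells with a range of 0 to 202 RPKM (2.996 log2). Plxna2 had 44.9 RPKM in C24, its highest value in any cell, and 7.56 RPKM in C56, against a median of 0.945 RPKM in mesenchymal-like cells (2.87 log2). Sema3f had 43.5 RPKM in C56, its highest value in any cell, and was listed at 0 in C24, so its difference of 2.46 log2 rests on C56 and was -0.28 log2 without it. Over the set, 7 of 51 genes (13.7%) were higher in C24 and C56, against 23.5% of all genes tested, and 12 (23.5%) were lower, against 11.8%. For the epithelial-like cells alone, 6 genes (11.8%) were higher, against 20.1% of all genes tested, and 5 (9.80%) lower, against 6.25%, and Plxnb2 had the largest positive difference (2.05 log2).

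Leukocyte-like cells had the fewest of these genes, with 5 to 14 detected per cell and a median of 7, against 8 to 22 and a median of 14 in mesenchymal-like cells. They also had fewer genes of any kind (median 3554, against 4032), and the part of this in the count was not tested. Higher were 2 of the 51 genes (3.92%, against 11.5% of all genes tested), and lower were 16 (31.4%, against 14.3%), with a median difference of -0.30 log2, against -0.16 over all genes tested. Sema6d was detected in 3 of the 4 cells, at 17.6, 39.1 and 12.8 RPKM in C2, C31 and C36 and listed at 0 in C54, against 19 of 67 mesenchymal-like cells at up to 59.3 RPKM, a difference of 2.29 log2. Plxnd1 was also detected in 3, at 9.89, 1.55 and 9.95 RPKM in C31, C36 and C54, against 3 of 67 mesenchymal-like cells (1.87 log2). The lower genes included Sema5a (-2.58 log2, detected in C36 only), Sema6a (-2.09 log2, at 33.2, 1.46 and 1.91 RPKM in C2, C36 and C54), Slit2 (-1.94 log2), Epha4 (-1.85 log2) and Robo1 (-1.55 log2, detected in C2 only). Efna5, by contrast, stood at 81.7, 96.1 and 76.2 RPKM in C2, C36 and C54 and 0.392 RPKM in C31, against a median of 49.9 RPKM in mesenchymal-like cells.

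The mesenchymal-like class was not uniform either. It joins 4 clusters of 30, 22, 10 and 5 cells. Their median depths were 3445950, 4071460, 2860720 and 3868840 reads, and the part of depth in their differences was not tested. The cluster of 30 holds C45 and the shallow C61, and that of 22 holds C91 and the shallow C94. Of the 22 genes detected in at least 25% of all cells, 4 (18.2%) had cluster means that spanned at least 2 log2 units, against 20.9% of 5731 genes as widely detected, so this spread was not wider than that of genes at large. In all 4 the cluster of 5 cells (C8, C11, C12, C29 and C41) had the highest or the lowest mean. As the smallest cluster, it has the least certain means. It was also highest or lowest for Robo1, Slit2, Sema5a and Sema6a, among others, and how often this holds over all genes was not computed. Ephb4 was detected in all 5 cells of this cluster, at 29.3, 40.6, 4.13, 7.92 and 52.8 RPKM. Its cluster mean was 4.31 log2 units, against 0.15 to 1.21 in the other 3 clusters. Efnb2 was detected in 4 of the 5, at 86.1, 147, 6.17 and 33.4 RPKM in C8, C11, C12 and C41 (mean 4.34 log2 units against 0.68 to 1.47). Sema6d was detected in 4 of 5, all but C41 (mean 3.01 against 0.66 to 1.11), and Robo2 was listed at 0 in all 5, against 13 of 22 cells in the second-largest cluster. Slit2 and Robo1 were both detected in all 5 cells. Epha4 and Sema5a, in turn, reached their highest cluster means in the cluster of 30 (4.47 and 4.05 log2 units) and Sema6a in the cluster of 22 (4.62), with detection in all 22.

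**Figure D5:**
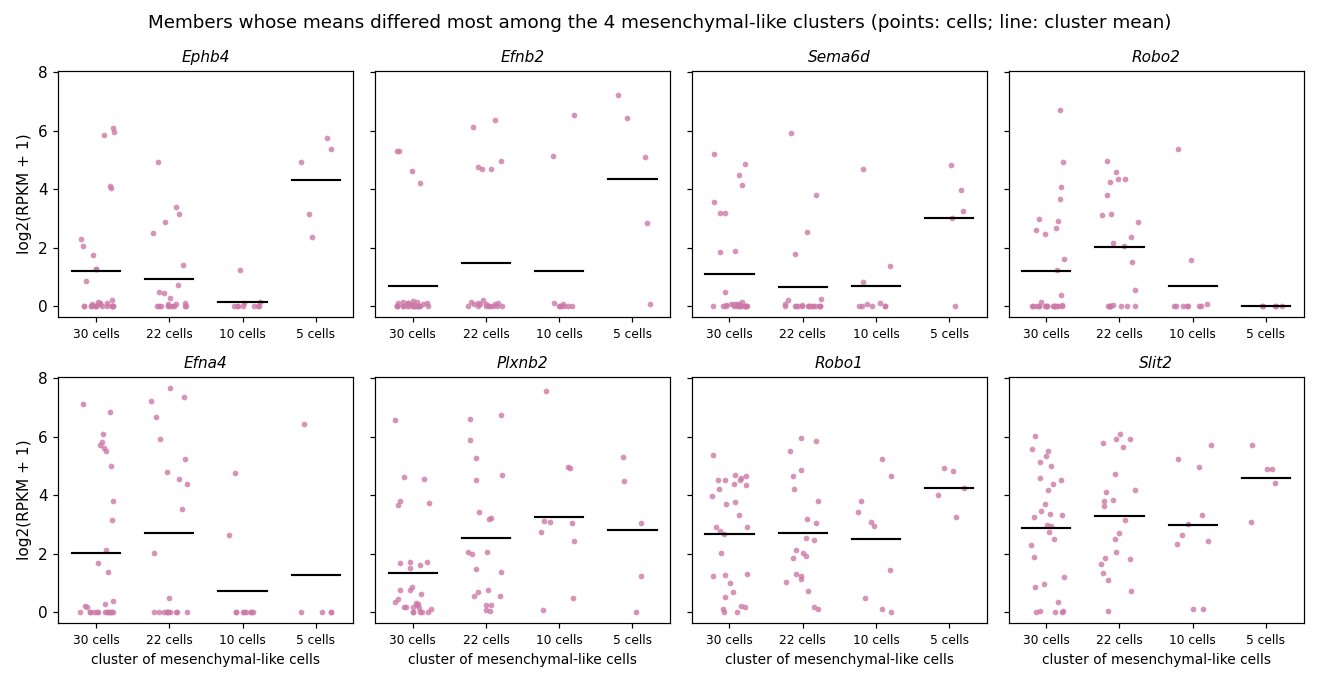
Levels, as log2(RPKM + 1), of the 8 genes whose means differed most among the 4 clusters of mesenchymal-like cells (points are cells, lines cluster means). In the cluster of 5 cells Ephb4, Efnb2 and Sema6d average 4.31, 4.34 and 3.01 log2 units, above the other 3 clusters, and Robo2 is at 0 in every cell.

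The cells that stand apart by their markers did not stand apart in how many of these genes they held. C45 had 10 detected, C91 had 8 and C37 had 15, against 8 to 22 and a median of 14 in mesenchymal-like cells. The mesenchymal-like C59 and C73 also had 8. C45, with its neural and glial markers, had Efna4 at 115 RPKM, Epha4 at 78.9 RPKM, Nrp1 at 46.2 RPKM and Sema4f at 43.1 RPKM. Other mesenchymal-like cells had higher Efna4 (up to 202 RPKM), Epha4 (up to 314 RPKM) and Nrp1 (up to 65.8 RPKM). No cell had higher Sema4f. Sema4f, a transmembrane semaphorin, was detected in only 1 other cell, the shallow C94, at 1.25 RPKM. All 3 other cells with Sema4f above 0, C94 among them, share an index with C45. None of the 65 cells that share no index with C45 had it above 0. Whether reads passed between these libraries was not tested. C37, the mesothelial-marked cell, had Plxnb2 at 170 RPKM, Sema6a at 97.2 RPKM and Efna5 at 58.9 RPKM.

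Genes that act with these ligands and receptors were compared in the same way. Of 38 cytoplasmic effectors that link guidance receptors to actin, 37 were in the table. Of these, 34 met the filter and were not used to form the clusters. In endothelial-like cells 15 of the 34 (44.1%) were higher, against 29% of all genes tested, and 2 (5.88%) lower, against 5.94%. In epithelial-type cells 6 (17.6%) were higher, against 16.6%, and none lower, against 4.51%. In leukocyte-like cells 7 (20.6%) were higher, against 11.5%, and 6 (17.6%) lower, against 14.3%. The largest differences in endothelial-like cells were those of the focal adhesion kinase gene Ptk2 (4.52 log2) and the collapsin response mediator Crmp1 (3.92 log2). Next came the adaptor Nck1 (3.75 log2), the kinase Fyn (3.59 log2) and Pak2, a kinase that acts downstream of Rac (2.80 log2). Ptk2 had 25.9 and 84.4 RPKM in the endothelial-like cells, against at most 32.4 RPKM in mesenchymal-like cells. So 1 endothelial-like cell lies within the mesenchymal-like range. For Crmp1, Nck1, Fyn and Pak2 the highest mesenchymal-like value was above both endothelial-like cells. In epithelial-type cells the largest differences were those of Gipc1, a binding partner of neuropilin, and the actin-binding Ablim1. Gipc1 was detected in 6 of 6 cells, against 32 of 67 mesenchymal-like cells (2.75 log2). Ablim1 was detected in 5 of 6 cells, against 7 of 67 (2.74 log2). In leukocyte-like cells Rasa1, which switches off Ras, was higher (2.32 log2) and the adaptor Nck2 lower (-2.35 log2). For Gipc1, Ablim1, Rasa1 and Nck2 the groups overlap too. Of 8 VEGF ligands and receptors, all in the table, Kdr (5.23 log2), Flt1 (3.64) and Flt4 (2.63) were higher in endothelial-like cells, with Kdr at 21.8 and 72.2 RPKM, against 3 of 67 mesenchymal-like cells; Kdr and Flt1 are also on the list that named these cells. Of the 7 VEGF genes that met the filter and were not used for clustering, 3 (42.9%) were higher and 2 (28.6%) lower in endothelial-like cells, none higher and 2 lower in leukocyte-like cells, and none either way in epithelial-type cells. Vegfa, a ligand of Nrp1, was detected in neither endothelial-like cell and none of the leukocyte-like cells, against 44 of 67 mesenchymal-like cells. Of 21 other guidance genes in the table, 11 met the filter and were not used for clustering. Higher and lower were 1 and 1 of the 11 (9.09% each) in epithelial-type cells, 2 and 1 (18.2% and 9.09%) in endothelial-like cells, and none and 3 (27.3%) in leukocyte-like cells; the shares over all genes tested are those given for the effectors, here and for the VEGF genes.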

How the data were processed

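The deposited table gives 1 value per transcript and cell, with mm9 coordinates. CASAVA 1.8.2 and mm9 are in the submitters' processing notes. How reads were aligned and counted, and on which annotation, is not stated in the sources used here. The table states no unit. The values the authors deposited were taken as RPKM, a unit inferred from their steps. Low values, those of a few reads, were multiplied by transcript length (GENCODE vM21). Of these, 79.1% (C61) to 84.2% (C25) per cell fell within 0.15 of a multiple of 1 read. The step was itself chosen by this fit, and it also gave reads per cell. Isoform rows share reads, so the row of highest mean stood for a gene. Some genes that all cells use are low in this table (Gapdh averaged 0.622 RPKM), so a gene without reads is called listed at 0; at most 3.195% of the 50-base windows of a gene of the set occur in other genes. Clusters came from 1000 genes of high variance outside the set, 10 principal components and Ward linkage (10 clusters), each named by the marker list with the largest share at 10 RPKM in at least 50% of cells and at least 3 markers. Members and lists were chosen with earlier results of these data known. Genes are named if detected in 25% of cells, at 100 RPKM in any cell, among the 10 strongest pairs, or 2 log2 units apart between classes with detection in 50% of the higher class; others are given by counts. The cells and cluster genes singled out, the rule for leading genes and the comparison of mesenchymal-like clusters were chosen with their values known. The clustering was also run on simulated data, with a shifted group larger than the endocrine-like and endothelial-like classes and with fewer clusters. That run therefore cannot show how well classes of 2 cells are found. Reads carry no molecular identifiers, so intervals (95%) cover counting error only. Genes of the mitochondrial genome were not analysed here. Work used Python 3.11.15, numpy 2.4.6, pandas 2.3.3 and scipy 1.17.1.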

Additional observations from a re-analysis of the deposited data

How the results depend on the processing

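Counts depended most on thresholds. Detection above 0 in place of 1 RPKM gave 20 widespread genes and 8 found in no cell, and 10 RPKM gave 4 widespread genes. With a pseudocount of 0.1 the counts of higher and lower genes were 10 and 10 in epithelial-type, 17 and 13 in endothelial-like and, for higher genes, 6 in leukocyte-like cells; with 10 they were 1 and 1, 7 and 1, and 0 and 2. Of 8 clusters, none was endothelial-like and 4 genes were higher in epithelial-type cells, a class that then took in C22 and C72. Gates on defining genes gave 8 lower genes in leukocyte-like cells. Leaving out values exceeded over 100 times by an index-sharing cell of another class gave 3 lower genes in epithelial-type cells. The Slit2 difference was then 0.29 log2 in both epithelial comparisons. This setting can take out little but low values, and for Slit2 it left C82 alone of the 6 cells. The Sema3f difference was -0.28 without C56 and 5.195 without C24. Leaving out 1 cell in turn gave 2 to 4 higher and 4 to 8 lower genes in epithelial-type cells (4 higher without C24, C82 or C95; 8 lower without the shallow C43), 12 to 12 and 7 to 9 in endothelial-like, and 2 to 6 and 15 to 17 in leukocyte-like cells (4 higher without C2, 6 without C31). Pairs with an absolute rho of 0.3 numbered 7 in mesenchymal-like cells and 5 without the shallow cells. Of 303 recomputed values of 25 named differences, 3 were reversed, 31 moved by more than 1 SD over mesenchymal-like cells and 269 by less. Leaving out C45 and C91, chosen after seeing the data, changed no count by over 1.5 times. No paired analysis was possible because the labels give 1 group. Classes of 2 to 6 cells, the 4 shallow cells and values near 1 read limit what these counts show.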
